A study of Mus musculus with 97 samples.

Results

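Serotonin is made from dietary tryptophan, stored in vesicles, taken back up after release and broken down inside cells, and 10 genes that carry out these steps or sense the released amine were followed across the hearts and jejuna of mice given naproxen, celecoxib or tryptophan. The 10 genes were taken by name from a table of 51368 genes: Tph1 and Ddc for synthesis, Slc18a1 for storage, Slc6a4 for uptake, Maoa and Maob for breakdown, and the receptor genes Htr2a, Htr2b, Htr3a and Htr4. The table held 97 libraries, of which 59 came from whole hearts and 38 from pieces of jejunum, and each library was 1 C57BL/6 mouse that was 11 weeks old at the end of the study. No genetic change was carried by any group.

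The libraries fell into 14 groups in 4 experiments, each a separate cohort with its own controls. In experiment 1, hearts came from 5 female and 5 male mice on a control diet and from 5 females and 5 males fed naproxen for 3 weeks, at 1323 ppm in the diet of females and 1610 ppm in that of males, and no mouse was injected. In experiment 2, female hearts came from 8 controls, 7 mice fed naproxen at 1323 ppm, and 8 mice fed the same diet and injected daily with tryptophan at 50 mg/kg during the last week. In experiment 3, female hearts came from 8 controls and 8 mice given tryptophan alone. In experiment 4, female jejuna came from 8 controls, 8 mice fed celecoxib at 550 ppm, 7 fed naproxen at 1323 ppm, 8 given tryptophan and 7 given naproxen with tryptophan. Mice of experiments 2 to 4 that did not receive tryptophan were injected with the saline vehicle, controls included. Naproxen inhibits both cyclooxygenases, and celecoxib is selective for cyclooxygenase-2. The tissues were whole pieces of organ, so fewer cells of a type and less RNA per cell cannot be told apart in any value below.

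In most of the body, serotonin synthesis starts with tryptophan hydroxylase 1, the product of Tph1, which is the rate-limiting enzyme, and is completed by aromatic L-amino acid decarboxylase, the product of Ddc. Enterochromaffin cells of the gut epithelium make the bulk of the body's serotonin, load it into granules through the vesicular monoamine transporter VMAT1 (Slc18a1) and release it towards enteric nerves and blood. The serotonin transporter SERT (Slc6a4) clears it into enterocytes and platelets, and the mitochondrial monoamine oxidases A and B degrade it. The receptors coded by Htr2a, Htr2b and Htr4 are coupled to G proteins, whereas that coded by Htr3a forms an ion channel on nerves.

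RefSeq promoter windows of build GRCm38.p6 were at hand for 6 of the 10 genes, namely Tph1, Ddc, Maoa, Slc6a4, Htr2a and Htr2b. The 250 bases before the first annotated start are shown for Maoa, Slc6a4 and Ddc, because these were the 3 genes with a window that had the highest jejunal level per kilobase of transcript. They are written 5′ to 3′ on the strand of the gene, and capitals mark matches on either strand to 4 motifs: the GC box GGGCGG, the TATA box TATAAA, the CCAAT box CCAAT and the core of HNF1 sites, which is TTAAT, any 2 bases and TTAA. No overlap between matches occurred in the windows shown.

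Maoa, chrX:16619448-16619697, plus strand: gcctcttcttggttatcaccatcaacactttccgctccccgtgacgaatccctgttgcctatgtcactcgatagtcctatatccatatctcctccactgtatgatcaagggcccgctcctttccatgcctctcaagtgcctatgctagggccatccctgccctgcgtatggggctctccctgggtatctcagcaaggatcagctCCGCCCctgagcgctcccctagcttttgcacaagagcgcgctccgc

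Slc6a4, chr11:76998347-76998596, plus strand: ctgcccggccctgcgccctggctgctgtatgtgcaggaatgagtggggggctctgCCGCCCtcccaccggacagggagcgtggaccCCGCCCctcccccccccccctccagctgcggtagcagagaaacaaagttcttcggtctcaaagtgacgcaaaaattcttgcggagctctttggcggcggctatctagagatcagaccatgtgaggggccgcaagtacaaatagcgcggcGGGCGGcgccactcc

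Ddc, chr11:11898145-11898394, minus strand: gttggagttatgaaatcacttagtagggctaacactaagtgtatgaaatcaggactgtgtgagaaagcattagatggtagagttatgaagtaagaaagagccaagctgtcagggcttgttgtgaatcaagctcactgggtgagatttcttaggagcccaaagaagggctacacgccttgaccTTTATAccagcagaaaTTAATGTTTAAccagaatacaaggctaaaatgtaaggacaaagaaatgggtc

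The Maoa window held 1 GC box, at 46 to 41 bases before the start. The Slc6a4 window held 3 GC boxes and was the richest in G and C of the windows shown, at 64.8% against 56.8% for Maoa and 40.8% for Ddc. The Ddc window held a TATA box match on the opposite strand, 68 to 63 bases before the start, and an HNF1 core match at 52 to 42 bases. Of 32851 promoter windows of the same length, 32.7% held the GC box, 12.4% the TATA box, 33.8% the CCAAT box and 0.484% the HNF1 core. A match of letters is a description and not a measured binding site.

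Of the 10 genes, 7 were higher in every control jejunum than in any control heart, 1 was higher in every control heart, and 2 overlapped. The share of all genes that separate in this way was not computed, so these counts do not set the 10 genes apart. Levels are given as counts per 1000000 counts of the scaled library (CPM), and comparisons between genes as CPM per kilobase of merged exon length. Heart and jejunum libraries came from different experiments, and heart RNA was selected by its poly-A tail whereas jejunal RNA was depleted of ribosomal RNA, so tissue, experiment and library method cannot be told apart and no test was made between tissues. Cardiac myosin Myh6 ranged from 6146 to 31266 CPM in the hearts and had a median of 0 in the jejuna, and the intestinal fatty acid binding protein Fabp2 ranged from 2988 to 14387 CPM in the jejuna with a median of 0 in the hearts.

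Maoa (ENSMUSG00000025037, chrX:16619698-16687818, GRCm38) had a median of 926 CPM in the 8 control jejuna, with a range of 449 to 1428. In the 26 control hearts its median was 5.06 CPM and its range 4.02 to 9.03, so the jejunal median was 183 times the cardiac one. Slc6a4 (ENSMUSG00000020838, chr11:76998603-77032340) stood 181.4-fold apart, at 53.2 CPM (25.3 to 66.3) in control jejuna and 0.293 CPM (0.0673 to 0.865) in control hearts. Neither gene's ranges overlapped between the tissues.

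Tph1 (ENSMUSG00000040046, chr7:46644641-46672537) was read at a median of 7.21 CPM in control jejuna (2.48 to 12.8) and 0.102 CPM in control hearts (0 to 0.201), a ratio of 70.97 that rested on 110 counts summed over all 26 control hearts. Slc18a1 (ENSMUSG00000036330, chr8:69037711-69089235) had 9.21 CPM in control jejuna (5.90 to 10.9) and 0.152 CPM in control hearts (0.0533 to 0.448), a ratio of 60.69. Ddc (ENSMUSG00000020182, chr11:11814101-11898144) had 85.6 CPM (54.9 to 134) against 4.53 CPM (1.97 to 8.37), a ratio of 18.9. These 3 genes of synthesis and storage were therefore lower in every control heart than in any control jejunum.

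Among the receptors the tissues were ordered differently from gene to gene. Htr2a (ENSMUSG00000034997, chr14:74640840-74709494) was the only gene of the 10 that was higher in every control heart than in every control jejunum, with medians of 1.69 CPM (1.02 to 3.72) and 0.336 CPM (0.0979 to 0.990), a 5.022-fold difference. Htr2b (ENSMUSG00000026228, chr1:86099026-86111970) was 6.442-fold higher in the jejunum, at 1.06 CPM (0.538 to 2.63) against 0.164 CPM (0.0327 to 0.405). Htr3a (ENSMUSG00000032269, chr9:48899213-48911099) had medians of 2.86 CPM (1.10 to 5.07) in jejunum and 0.474 CPM (0.0345 to 4.11) in heart, and these ranges overlapped. Htr4 (ENSMUSG00000026322, on chromosome 18) had 2.25 CPM (1.32 to 3.73) in the jejunum, and only 4 counts in all 26 control hearts together, in 4 libraries of 1 count each. Over all 59 hearts Htr4 gave 16 counts in 13 libraries, so no ratio is given.

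Htr2b lies within Psmd1, a proteasome subunit gene on the opposite strand that had medians of 109 CPM in heart and 79.5 CPM in jejunum. Slc18a1 shares 590 bases with Atp6v1b2, a vacuolar ATPase subunit gene on the opposite strand at 65.6 and 75.3 CPM. These overlaps are of whole gene spans, and shared exons were not looked for. The sources used here do not state whether the counting used strand, so reads of these partners could be among those of Htr2b and Slc18a1. The levels of both genes in hearts and in jejuna, and the ratios and differences built on them, are uncertain for that reason.

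**Figure D1:**
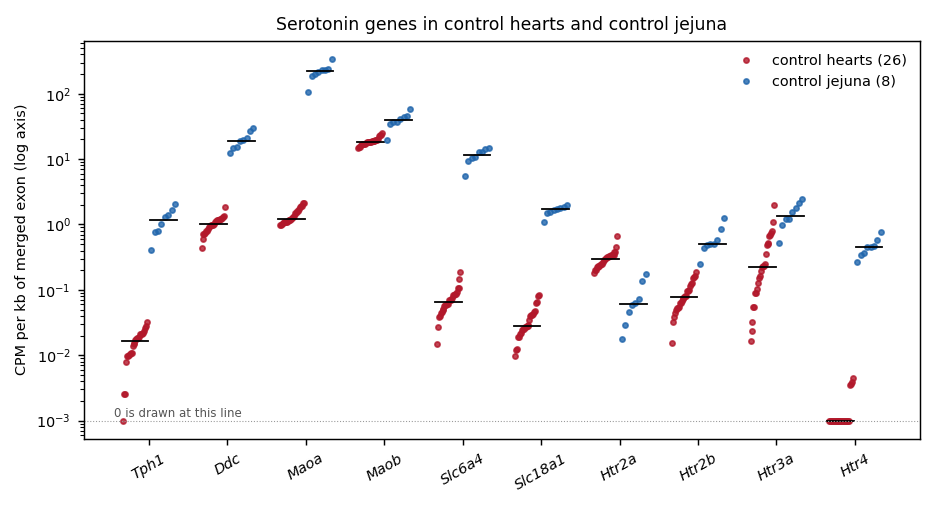
Level of each serotonin gene in CPM per kilobase of merged exon on a log axis, in the 26 control hearts and 8 control jejuna (points are libraries, bars are medians, and 0 is drawn at the dotted line). Maob and Htr3a overlap between the tissues, Htr2a is higher in hearts, and the other genes are higher in jejuna.

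Per kilobase, Maoa was the most abundant of the 10 in control jejuna, with a median of 222 CPM per kilobase. Maob followed at 39.3, Ddc at 19.2 and Slc6a4 at 11.7 CPM per kilobase. The Maoa range did not reach that of Maob, whereas Maob and Ddc overlapped and so did Ddc and Slc6a4. Slc18a1 (1.71), Htr3a (1.37), Tph1 (1.17), Htr2b (0.496) and Htr4 (0.459 CPM per kilobase) formed a lower group in which each neighbour overlapped the next, and Htr2a stood below them at 0.0600. In control hearts the order began with Maob at 18.4 CPM per kilobase, above the ranges of all others. Maoa (1.21) and Ddc (1.02) overlapped each other, and Htr2a (0.301), Htr3a (0.228), Htr2b (0.0770), Slc6a4 (0.0647), Slc18a1 (0.0281) and Tph1 (0.0165 CPM per kilobase) followed with each neighbour overlapping the next.

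The 2 monoamine oxidase genes thus had opposite balances in the 2 organs. They lie next to each other on the X chromosome, and their products differ in substrate preference: oxidase A prefers serotonin and noradrenaline, oxidase B phenylethylamine. Maob (ENSMUSG00000040147, chrX:16709282-16817366) had medians of 51.3 CPM (40.9 to 70.3) in control hearts and 110 CPM (54.2 to 163) in control jejuna, a ratio of 2.137 with overlapping ranges. In the 59 hearts the ratio of Maoa to Maob per kilobase had a median of 0.0708 and ran from 0.0468 to 0.112. In the 38 jejuna the same ratio had a median of 5.49 and ran from 3.58 to 9.63. The ratio lay below 1 in every heart and above 1 in every jejunum, whichever treatment the mouse had received.

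**Figure D2:**
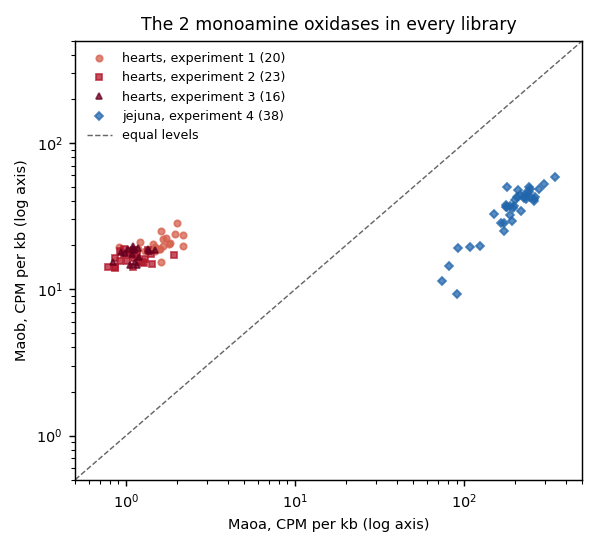
Maoa against Maob in each of the 97 libraries, in CPM per kilobase on log axes, with the line of equal level. Hearts lie on the Maob side, with ratios of 0.0468 to 0.112, and jejuna on the Maoa side, with ratios of 3.58 to 9.63.

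None of the serotonin genes passed the adjusted threshold for naproxen, celecoxib, tryptophan or sex in the test applied. Each experiment was fitted with edgeR's quasi-likelihood test over all genes with enough counts, p-values were adjusted by Benjamini-Hochberg over all of them, and the threshold for a call was an adjusted p of 0.05. Of the 10 genes, 7 had enough counts for the test in experiment 1 (not Tph1, Htr2b or Htr4), 8 in experiment 2 (not Tph1 or Htr4), 6 in experiment 3 (not Tph1, Slc18a1, Htr2b or Htr4) and 10 in the jejunum. Over 15 comparisons this gave 128 tests of serotonin genes, of which 0 were called, 6 had an unadjusted p below 0.05 and the lowest adjusted p was 0.154. DESeq2 on the same comparisons also called 0 of them.

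These counts stand beside few calls among all genes. In experiment 1, 0.0132% of 15152 genes were called for naproxen in females, 0% for naproxen in males, 0% for the difference between the sexes in the naproxen effect, and 0.152% for male against female controls. In experiment 2, 0% of 16085 genes were called for naproxen, 0.255% for naproxen with tryptophan, and 0.0933% for tryptophan added to naproxen. In experiment 3, 0% of 15805 genes were called for tryptophan. In the jejunum, 0.0116% of 17185 genes were called for naproxen, and 0% for celecoxib, for tryptophan, for naproxen with tryptophan, for tryptophan added to naproxen, for the interaction of both and for naproxen against celecoxib. With so few calls among all genes, the absence of calls among 10 genes is near the background and does not set them apart.

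Synthesis was examined first. In the jejunum, Tph1 lay between 2.48 and 12.8 CPM in controls (median 7.21), 3.65 and 7.95 with naproxen (5.99), 4.23 and 9.39 with celecoxib (6.23), 3.66 and 13.2 with tryptophan (6.85), and 3.74 and 9.56 with naproxen and tryptophan (4.62). All groups overlapped. The log2 difference from control was -0.28 for naproxen (95% confidence interval -0.82 to 0.26) and -0.37 for naproxen with tryptophan (-0.92 to 0.17), with adjusted p-values of 0.592 and 0.876 by edgeR. For tryptophan alone it was 0.02 (-0.50 to 0.53), so that an increase or decrease of Tph1 beyond 1.447-fold or 0.7093-fold lay outside the interval.

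In the hearts, Tph1 was read at 0 to 11 counts a library and 227 counts over all 59. It was compared by an exact 2-sided permutation test on log2(CPM + 0.5), without a block for dissection batch, and the lowest p was in experiment 3. There, hearts of mice given tryptophan averaged 0.0630 ± 0.0514 CPM (SD, n = 8) and controls 0.104 ± 0.0400 CPM (n = 8), with an exact p of 0.089 and an adjusted p of 0.134. A difference was not detectable at this depth.

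Ddc was tested in all 4 experiments. In control jejuna its median was 85.6 CPM, and it was 63.7 with naproxen (25.2 to 102), 86.5 with celecoxib (45.7 to 116), 98.8 with tryptophan (35.96 to 168) and 85.0 with naproxen and tryptophan (29.3 to 154). The treated groups spread more widely than the differences between their medians. The edgeR log2 differences of Ddc from control ran from -0.36 for naproxen (-0.95 to 0.23, adjusted p = 0.529) to 0.17 for tryptophan (-0.40 to 0.73, adjusted p = 0.999). In hearts the estimates were more precise, at -0.24 (-0.64 to 0.16) for naproxen in females of experiment 1, -0.05 (-0.46 to 0.35) in males, -0.21 (-0.48 to 0.06) for naproxen in experiment 2 and -0.04 (-0.36 to 0.28) for tryptophan in experiment 3. None of these passed the threshold. Without 6 jejuna described below, the naproxen difference of Ddc in the jejunum was -0.23 (adjusted p = 0.718 by edgeR).

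Of the genes of storage and uptake, Slc6a4 accounted for 5 of the 6 unadjusted p-values below 0.05. Its difference for naproxen alone was negative in the jejunum and positive in the hearts of experiment 2. In the jejunum, Slc6a4 lay between 25.3 and 66.3 CPM in controls with a median of 53.2, between 34.2 and 70.3 with celecoxib (53.4), and between 30.6 and 62.5 with tryptophan (49.9). With naproxen it lay between 19.3 and 48.3 CPM with a median of 39.4, and with naproxen and tryptophan between 16.9 and 54.4 with a median of 44.2. The medians of both naproxen groups were thus the lowest, while every group overlapped the controls.

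The fitted log2 difference of Slc6a4 between naproxen and control jejuna was -0.49 (SE 0.19, 95% confidence interval -0.89 to -0.10), with an adjusted p of 0.23 by edgeR. For naproxen with tryptophan against control it was -0.42 (SE 0.19, -0.81 to -0.03, adjusted p = 0.814 by edgeR). Both differences used the same 8 controls. For celecoxib it was 0.04 (-0.33 to 0.42, adjusted p = 0.98). The difference between naproxen and celecoxib, whose doses in the diet differed (1323 against 550 ppm), was -0.54 (SE 0.19, -0.93 to -0.14, adjusted p = 0.159 by edgeR). The 3 differences with a naproxen group each had an unadjusted p below 0.05 and none passed the adjusted threshold, and 16% of all genes had an unadjusted p below 0.05 for naproxen, 5.98% for naproxen with tryptophan and 18.7% for naproxen against celecoxib.

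**Figure D3:**
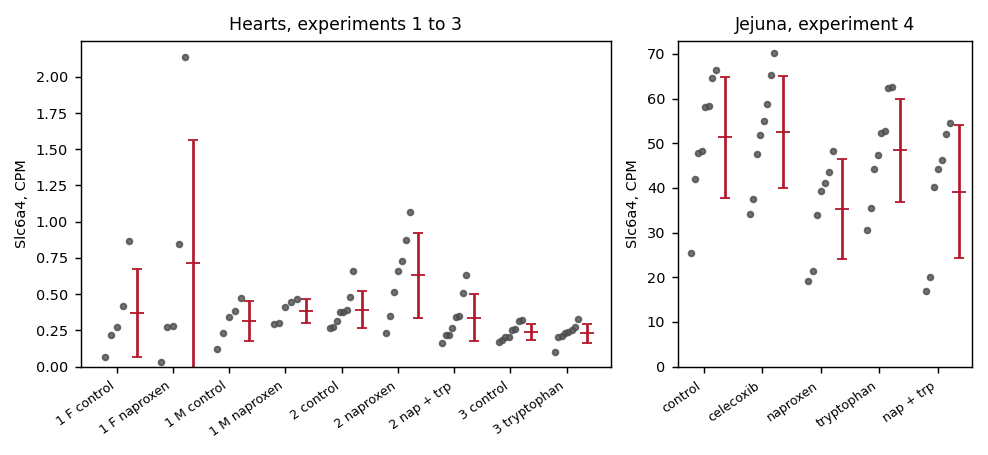
Slc6a4 in CPM in every library by group, hearts of experiments 1 to 3 on the left and jejuna on the right with separate y axes (points are libraries, red bars are the mean and SD, and the bar of female naproxen hearts in experiment 1 is cut at 0). In the jejunum the naproxen groups have medians of 39.4 and 44.2 CPM beside 53.2 in controls, and in experiment 1 a single female heart at 2.14 CPM stands above the rest.

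The jejunal pieces differed in their level of epithelial markers. The summed level of 7 enterocyte markers was between 9821 and 13739 CPM in 6 jejuna and at least 17697 CPM in the other 32. The 6 were 1 control, 2 naproxen, 1 tryptophan and 2 naproxen with tryptophan libraries, with none from celecoxib, and the lowest Slc6a4, Maoa and Maob values of each of these 4 groups came from among them. Tph1 in the 6 lay between 3.74 and 6.99 CPM, around its median of 6.17 CPM over all 38 jejuna. Without the 6, the log2 difference of Slc6a4 was -0.37 for naproxen (adjusted p = 0.233 by edgeR), -0.28 for naproxen with tryptophan (adjusted p = 0.91) and -0.31 for naproxen against celecoxib (adjusted p = 0.497), so the last 2 moved by more than 1.5 times. Each had an SE of 0.13, and the unadjusted edgeR p-values were 0.00855, 0.046 and 0.0223 in the same order. The share of all genes with an unadjusted p below 0.05 was not computed for that fit. Over the alternatives, the adjusted p of the naproxen difference ran from 0.00551, without a filter on low counts, to 0.459. The group medians of the summed enterocyte markers were 28258 CPM in controls and 24965 CPM with naproxen, and all 7 markers had a negative difference, 0 of them called.

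Of the other marker lists in the naproxen jejuna, that of adipocytes had the largest difference: 6 of 6 markers were negative, 5 at an unadjusted p below 0.05 and 0 called, with a median log2 difference of -2.55. Their summed median was 60.4 CPM in controls (26.9 to 76.1) and 30.3 CPM with naproxen (22.0 to 45.2). Cidec weighed most in this sum, with a median of 30.0 CPM over all jejuna beside 8.76 CPM for Cfd, the next highest. The lowest level of Cidec in a jejunum was 8.45 CPM, while each of the other adipocyte markers reached 0. The summed level of 9 enterochromaffin markers had a median of 171 CPM in controls (89.3 to 240) and 101 CPM with naproxen (60.5 to 159). Of the 7 of these that could be tested, 6 were lower with naproxen, 1 at an unadjusted p below 0.05 and 0 called. Reg4 weighed most in the enterochromaffin sum, with a median of 78.6 CPM over all jejuna. The 6 smooth muscle markers were all positive, with a median log2 difference of 0.311 and 0 called, and so were the 6 markers of B cell follicles, with a median of 0.913 and 0 called. The part of these other cell types in the Slc6a4 difference was not tested.

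In the hearts of experiment 2, the sign for naproxen alone was the reverse. Slc6a4 lay between 0.269 and 0.658 CPM in controls (median 0.377), between 0.230 and 1.07 with naproxen (0.657) and between 0.165 and 0.634 with naproxen and tryptophan (0.305). The naproxen hearts reached highest, and all 3 groups overlapped. The log2 difference for naproxen was 0.66 (SE 0.31, 0.03 to 1.29, adjusted p = 1 by edgeR), and that for tryptophan added to naproxen was -0.87 (SE 0.31, -1.51 to -0.24, adjusted p = 0.385). Both had an unadjusted p below 0.05, neither passed the adjusted threshold, and both used the same 7 naproxen hearts, which were read at 15 to 49 counts of Slc6a4. Of all genes, 3.63% had an unadjusted p below 0.05 for naproxen and 9.8% for tryptophan added to naproxen.

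Platelets carry the serotonin transporter, so platelet markers are given beside it. The summed level of 7 platelet markers had a median of 11.0 CPM in the controls of experiment 2, 16.9 CPM with naproxen and 10.9 CPM with naproxen and tryptophan. Pf4 weighed most in this sum, with a median of 6.73 CPM over all hearts beside 1.63 CPM for Itga2b, the next highest. For naproxen, 7 of 7 platelet genes had a positive difference, 3 with an unadjusted p below 0.05, and for tryptophan added to naproxen 6 of 7 were negative, 5 with an unadjusted p below 0.05. None was called. Neutrophil markers had the same signs and larger differences: 3 of 3 tested were positive for naproxen, with a median of 2.62, and 3 of 3 negative for tryptophan added to naproxen, with a median of -1.27, all at an unadjusted p below 0.05 and 0 called. The summed level of the 5 neutrophil markers had medians of 1.302 CPM in controls, 8.03 CPM with naproxen and 1.68 CPM with naproxen and tryptophan. Of 5 erythroid markers, 5 were positive for naproxen (median 0.323) and 4 for tryptophan added to naproxen (median 0.183), with 0 at an unadjusted p below 0.05. These marker counts stand beside the 3.63% and 9.8% of all genes at an unadjusted p below 0.05 in the same 2 comparisons. The part of platelets, neutrophils or blood in the Slc6a4 differences was not tested.

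In experiment 1, the 5 female control hearts had 0.275, 0.0673, 0.416, 0.221 and 0.865 CPM of Slc6a4 and the 5 female naproxen hearts 0.849, 0.0327, 2.14, 0.283 and 0.271 CPM. The heart at 2.14 CPM, naproxen replicate 3, also had the highest platelet sum of experiment 1, 42.8 CPM. The log2 difference was 0.95 (-0.43 to 2.34, adjusted p = 0.775 by edgeR) and became -0.02 without that heart, whose platelet content was not tested as a part of it. In male hearts it was 0.29 (-1.19 to 1.78, adjusted p = 0.955), and in experiment 3 tryptophan gave -0.04 (-0.55 to 0.47, adjusted p = 1).

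Slc18a1 overlapped between all jejunal groups, at 5.90 to 10.9 CPM in controls, 5.05 to 10.2 with naproxen and 3.05 to 12.2 with naproxen and tryptophan. Its medians were 9.21 CPM in controls, 9.62 with celecoxib, 7.04 with naproxen, 9.33 with tryptophan and 7.99 with naproxen and tryptophan. The log2 difference from control was -0.23 for naproxen (-0.59 to 0.14, adjusted p = 0.515 by edgeR; -0.14 without the 6 jejuna) and 0.11 for celecoxib (-0.24 to 0.46, adjusted p = 0.963). In hearts it was read at 1 to 25 counts a library, and its intervals there were wide, for example -0.58 to 1.67 on the log2 scale for naproxen in females of experiment 1.

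Of the serotonin genes tested in hearts, Maob had the narrowest interval in each of the 8 comparisons. Maob in experiment 2 lay between 43.0 and 52.2 CPM in controls (median 48.1), between 39.6 and 51.5 with naproxen (43.8) and between 39.0 and 50.7 with naproxen and tryptophan (42.5). The combined group had the lowest median, and the groups overlapped over most of their range. The log2 difference of Maob between naproxen with tryptophan and control was -0.18 (SE 0.06, -0.30 to -0.05), and its unadjusted p was below 0.05. Its adjusted p of 0.154 was the lowest of any serotonin gene in the edgeR fits. Genes under the count filter, compared by permutation and adjusted over fewer genes, are not part of that ranking. In the same comparison 17.2% of all genes had an unadjusted p below 0.05.

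Elsewhere in the hearts, Maob differed from control by -0.12 for naproxen in experiment 2 (-0.25 to 0.01, adjusted p = 1 by edgeR), by -0.07 and 0.08 for naproxen in females and males of experiment 1, and by -0.06 for tryptophan in experiment 3 (-0.21 to 0.08). Intervals this narrow leave changes of Maob beyond 0.8655-fold or 1.059-fold for tryptophan outside them. Maoa in hearts differed by -0.17 (-0.54 to 0.20) and -0.25 (-0.62 to 0.12) for naproxen in females and males of experiment 1, by -0.04 (-0.35 to 0.28) for naproxen in experiment 2 and by -0.07 (-0.23 to 0.08) for tryptophan in experiment 3.

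In the jejunum both oxidase genes had lower medians with naproxen. Maoa lay between 449 and 1428 CPM in controls (median 926), and between 309 and 852 with naproxen (738). Maob lay between 54.2 and 163 CPM in controls (110) and between 31.6 and 120 with naproxen (81.7). The naproxen ranges began lower and overlapped the controls. The log2 differences were -0.42 for Maoa (-0.86 to 0.02, adjusted p = 0.329) and -0.38 for Maob (-0.87 to 0.10, adjusted p = 0.414) by edgeR.

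Naproxen against celecoxib gave -0.40 for Maoa (-0.84 to 0.04) and -0.45 for Maob (-0.93 to 0.04), each with an adjusted p of 0.306 by edgeR. Without the 6 jejuna with low enterocyte markers, these became -0.14 (adjusted p = 0.794) and -0.19 (adjusted p = 0.702). The naproxen differences from control became -0.26 for Maoa (adjusted p = 0.436) and -0.24 for Maob (adjusted p = 0.462), also more than 1.5 times smaller. Celecoxib alone gave -0.02 for Maoa (-0.44 to 0.40) and 0.06 for Maob (-0.40 to 0.53), and tryptophan alone -0.05 (-0.47 to 0.38) and 0.02 (-0.44 to 0.49).

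Over the 10 genes, 8 had a negative difference for naproxen in the jejunum, with a median log2 difference of -0.255 beside 0.022 over all genes tested. For naproxen with tryptophan 7 of 10 were negative with a median of -0.13, for celecoxib 6 of 10 with a median of -0.015, and for tryptophan 3 of 10 with a median of 0.0205. These comparisons share the 8 controls. Without the 6 jejuna with low enterocyte markers, the naproxen differences of Htr2a and Htr2b turned from 0.19 and 0.13 to -0.05 and -0.10, so that all 10 were negative. The interaction of naproxen and tryptophan, which asks whether tryptophan acts differently under naproxen, ran from -0.51 for Htr2b to 0.17 for Maoa, with adjusted p-values of 1 by edgeR.

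**Figure D4:**
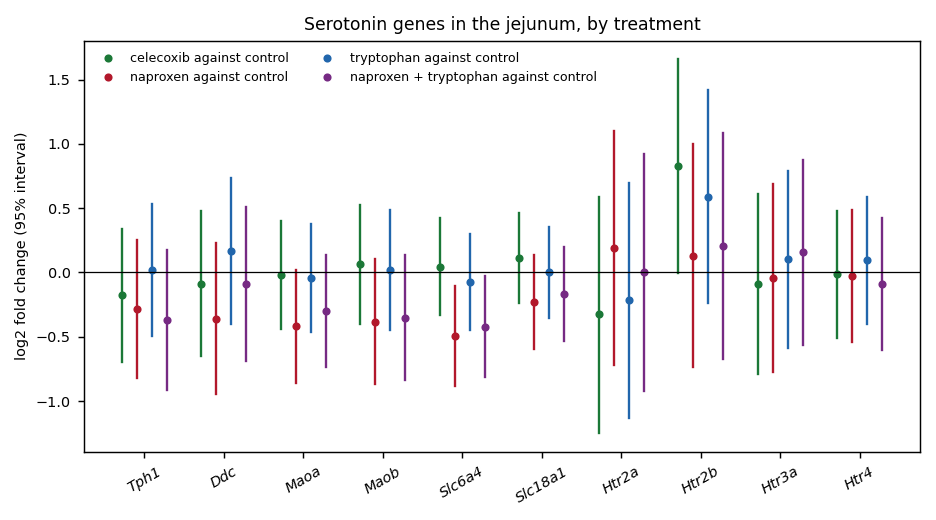
Fitted log2 fold change against control (y axis) of each of the 10 genes in the jejunum (x axis) for celecoxib, naproxen, tryptophan and naproxen with tryptophan (points are estimates, bars are 95% confidence intervals). Slc6a4 has the intervals that lie wholly below 0, -0.89 to -0.10 for naproxen and -0.81 to -0.03 for naproxen with tryptophan, and no gene passed the adjusted threshold.

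Receptor genes were low in both organs and their intervals were wide. Of Htr2a, Htr2b, Htr3a and Htr4, Htr2b had the largest point estimate in the jejunum. It lay between 0.538 and 2.63 CPM in controls (median 1.06), 0.997 and 4.16 with celecoxib (1.87), and 1.20 and 4.94 with tryptophan (1.38). The celecoxib group reached higher and overlapped the controls. The log2 difference for celecoxib was 0.82 (SE 0.41, -0.00 to 1.66, adjusted p = 0.957 by edgeR), and for tryptophan 0.59 (-0.24 to 1.42, adjusted p = 0.999). The naproxen group had a median of 1.04 CPM and a difference of 0.13 (-0.74 to 1.00). The 6 smooth muscle markers were all positive for celecoxib, with a median of 0.285 and 0 called, and their part in the Htr2b difference was not tested.

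In the hearts of experiment 3, Htr2b was too low for the fit and was compared by the exact 2-sided permutation test, which had no block for dissection batch. It averaged 0.226 ± 0.0579 CPM with tryptophan and 0.149 ± 0.0616 CPM in controls (SD, n = 8 each), a difference of 0.16 on the log2(CPM + 0.5) scale, with an exact p of 0.0247 and an adjusted p of 0.0741 over the 3 genes so compared. The values of the groups overlapped, from 0.130 to 0.307 and from 0.0681 to 0.241 CPM, at 4 to 16 counts a library. In experiment 1, Htr2b averaged 0.151 ± 0.0274 CPM in male and 0.301 ± 0.104 CPM in female control hearts (SD, n = 5 each), with an exact p of 0.0397 and an adjusted p of 0.238.

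Htr2a, a receptor of smooth muscle, platelets and cardiac cells, was tested everywhere. The 5 female control hearts of experiment 1 had 2.10, 2.15, 2.49, 3.72 and 1.28 CPM, and the 5 naproxen hearts 1.67, 1.77, 1.45, 2.04 and 2.20 CPM. The highest control stood alone, and the other values overlapped. The log2 difference was -0.36 (-0.82 to 0.10, adjusted p = 0.758 by edgeR), and in experiment 2 it was -0.18 (-0.49 to 0.14) for naproxen and -0.28 (-0.58 to 0.03, adjusted p = 0.337) for naproxen with tryptophan. Tryptophan in experiment 3 gave -0.24 (-0.63 to 0.15, adjusted p = 1). In the jejunum Htr2a was read at 2 to 22 counts a library.

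Htr3a varied widely between hearts of one group. In experiment 3 it ran from 0.0676 to 4.11 CPM among 8 controls (median 0.906) and from 0.0967 to 3.18 among 8 tryptophan hearts (0.341). Its coefficient of variation over the 59 hearts was 135%, against 15.6% for Maob. The log2 differences of Htr3a in hearts were accordingly imprecise, at -1.68 (-3.74 to 0.34, adjusted p = 0.741 by edgeR) for naproxen in females of experiment 1, -0.74 (-2.58 to 1.10) for naproxen in experiment 2 and -0.73 (-2.25 to 0.77) for tryptophan in experiment 3. In the jejunum the differences from control lay between -0.09 for celecoxib and 0.16 for naproxen with tryptophan.

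Between the sexes, Htr2a averaged 1.76 ± 0.257 CPM in male and 2.35 ± 0.886 CPM in female control hearts of experiment 1 (SD, n = 5 each). The log2 difference was -0.41 (-0.87 to 0.05, adjusted p = 0.594 by edgeR). For Slc18a1 it was 0.82 (-0.27 to 1.94, adjusted p = 0.608), and for Maob the interval was -0.26 to 0.25. The difference between males and females in the naproxen effect ran from -0.79 for Slc18a1 (-2.35 to 0.74) to 0.64 for Htr3a (-2.27 to 3.57), and none passed the threshold.

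Adding tryptophan to naproxen gave, beside the Slc6a4 value above, log2 differences of 0.25 for Ddc (-0.02 to 0.52, adjusted p = 0.542 by edgeR) and -0.70 for Htr2b (-1.66 to 0.23, adjusted p = 0.631) in the hearts of experiment 2. In the jejunum it gave 0.27 for Ddc (-0.34 to 0.88, adjusted p = 0.996) and 0.07 for Slc6a4 (-0.33 to 0.48, adjusted p = 0.996). No gene of the 10 passed the threshold in either tissue.

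Htr4, which promotes gut motility, was even across the jejunal groups. Its medians were 2.25 CPM in controls, 2.29 with celecoxib, 2.20 with naproxen, 2.26 with tryptophan and 1.79 with naproxen and tryptophan. The log2 differences from control ran from -0.09 for naproxen with tryptophan (-0.60 to 0.42) to 0.09 for tryptophan (-0.40 to 0.59), with adjusted p-values of 0.967 and 0.999 by edgeR.

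The spread between mice of a group was compared with cell type markers, in 18 relations that were chosen after the data had been seen. Each relation used log2(CPM + 0.5) after removal of the group and dissection batch means, a permutation p from 100000 draws, whose smallest possible value is 1e-05, and Benjamini-Hochberg adjustment over the 18. Htr3a followed the summed level of 10 neuronal markers in every experiment. Pearson's r was 0.847 over the 20 hearts of experiment 1, 0.912 over the 23 of experiment 2, 0.949 over the 16 of experiment 3 and 0.81 over the 38 jejuna, each with the smallest possible permutation p and an adjusted p of 3e-05. Spearman's rho was 0.755, 0.742, 0.921 and 0.729, with permutation p-values of 0.00023, 7e-05, 1e-05 and 2e-05. Without the 2 libraries farthest from the median, r was 0.81, 0.823, 0.949 and 0.746, and without the 6 low jejuna it was 0.772. The heart with the highest Htr3a of experiment 3, at 4.11 CPM, also had the highest neuronal sum, 51.3 CPM. In the jejuna Vip weighed most in the neuronal sum, with a median of 54.3 CPM beside 10.4 CPM for Ret, the next highest.

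Slc6a4 in hearts followed the platelet sum in experiments 1 and 2. Pearson's r was 0.812 in experiment 1 (permutation p = 0.00012, adjusted 0.00024; rho 0.62, permutation p = 0.0044) and was 0.542 without the 2 farthest hearts, so its size rests in part on them. In experiment 2 it was 0.711 (permutation p = 0.00014, adjusted 0.00025; rho 0.741, permutation p = 7e-05) and 0.706 without the 2 farthest. In experiment 3 it was 0.422 (permutation p = 0.1, adjusted 0.11; rho 0.444, permutation p = 0.087), and no relation was shown.

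In the jejunum the relation with enterocyte markers was computed over the 32 libraries that remain without the 6 low ones, since those form a separate cluster. Ddc gave r = 0.718 (permutation p = 2e-05, adjusted 5.1e-05; rho 0.707), Maoa 0.681 (permutation p = 1e-05, adjusted 3e-05; rho 0.687), Slc18a1 0.608 (permutation p = 0.00027, adjusted 0.00044; rho 0.505) and Maob 0.523 (permutation p = 0.0024, adjusted 0.0033; rho 0.582). Without the 2 farthest libraries these were 0.687, 0.731, 0.54 and 0.513. Slc6a4 (r = 0.316, rho 0.273, permutation p = 0.077 and 0.13, adjusted 0.098 and 0.14) and Tph1 (r = 0.293, rho 0.239, permutation p = 0.11 and 0.19, adjusted 0.11 and 0.19) did not pass.

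Tph1 instead followed the 9 enterochromaffin markers, with r = 0.77 over 38 jejuna (permutation p = 1e-05, adjusted 3e-05; rho 0.759, permutation p = 1e-05). The value was 0.702 without the 2 farthest and 0.828 without the 6 low jejuna. In this list Reg4 had the highest median over the 38 jejuna, 78.6 CPM, beside 37.6 CPM for Chgb and 19.7 CPM for Chga, and so weighed most in the sum. Slc18a1, which serves the same cells, had r = 0.184 with that list (permutation p = 0.27, adjusted 0.27; rho 0.315, permutation p = 0.054). Whether Tph1 and Slc18a1 differ in this relation was not tested.

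Tph1 was also negatively related to the list of 11 mast cell markers, with r = -0.602 (permutation p = 8e-05, adjusted 0.00018; rho -0.598, permutation p = 0.00017), -0.537 without the 2 farthest and -0.709 without the 6 low jejuna. Mast cells are another site of Tph1, but in these jejuna the list was carried by Kit, a receptor that gut pacemaker cells also express, with a median of 29.5 CPM. The next highest medians were 1.04 CPM for Hdc, 1.01 CPM for the protease gene Mcpt1 (0.230 to 5.46) and 0.346 CPM for Mcpt2. The mast cell carboxypeptidase Cpa3 had 0.102 CPM and Fcer1a 0.0366 CPM. The tryptase genes Tpsb2 and Tpsab1, and Cma1, Mcpt4 and Ms4a2, had medians of 0. Htr2b was positively related to 6 smooth muscle markers (r = 0.517, permutation p = 0.0011, adjusted 0.0016; rho 0.477, permutation p = 0.0029; 0.486 without the 2 farthest). Htr4 showed no relation with the neuronal list (r = -0.271, permutation p = 0.1, adjusted 0.11; rho -0.258, permutation p = 0.12).

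**Figure D5:**
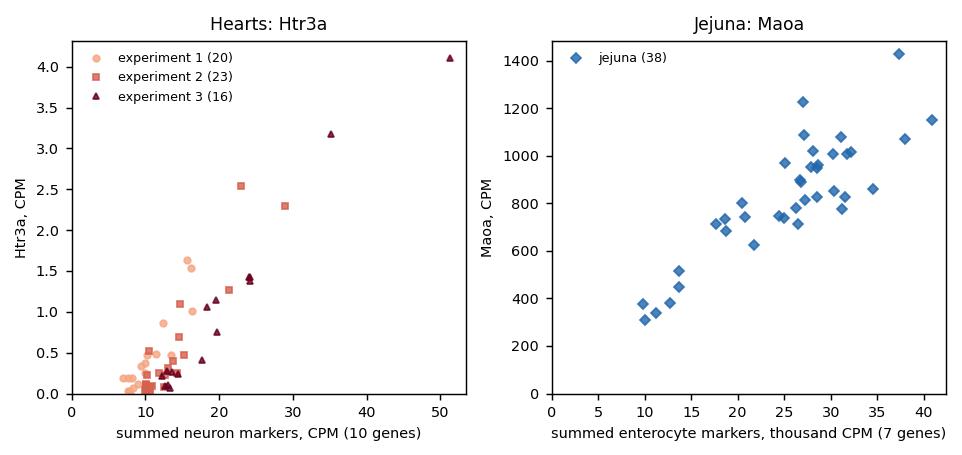
Left, Htr3a against the summed level of 10 neuronal markers in the 59 hearts, and right, Maoa against the summed level of 7 enterocyte markers in the 38 jejuna, all in CPM without adjustment for group or batch (points are libraries). The heart at 4.11 CPM of Htr3a has the highest neuronal sum, 51.3 CPM, and the 6 jejuna with 9821 to 13739 CPM of enterocyte markers have the lowest Maoa.

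The genes most alike each member across libraries were then listed, as the 3 highest Pearson correlations of log2 CPM after removal of group and batch means among genes of at least 1 CPM. In the 38 jejuna these were Chgb (0.853), Lmx1a (0.768) and Ghrl (0.75) for Tph1, where Chgb codes for a granule protein of endocrine cells, Lmx1a for a transcription factor of enterochromaffin cells and Ghrl for the hormone ghrelin. For Ddc they were Bpnt1 (0.979), Dhrs1 (0.974) and Mttp (0.974), the last of which loads lipid onto chylomicrons in enterocytes. For Maoa they were Pepd (0.946), Lap3 (0.942) and Gk (0.938), and for Maob Cyp4v3 (0.96), the peptide transporter Slc15a1 (0.946) and the lactate transporter Slc5a12 (0.942). For Slc6a4 they included Me2 (0.946) and Epb41l3 (0.937), and for Slc18a1 Mfsd4b2 (0.885), Thrb (0.879) and Bche (0.878).

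These values include the 6 low jejuna. Without them the correlations of the same genes lay between 0.956 and 0.961 for Ddc, between 0.803 and 0.88 for Maoa, between 0.796 and 0.863 for Maob, between 0.824 and 0.853 for Slc6a4, between 0.725 and 0.804 for Slc18a1 and between 0.792 and 0.88 for Tph1. Of the receptors, Htr3a was nearest to the nerve genes Ngfr (0.859), Syn2 (0.856) and Pirt (0.849), Htr2b to Pde3a (0.82), Rgmb (0.77) and Ube2r2 (0.754), Htr4 to Lmbr1 (0.724), Noxa1 (0.708) and Noxo1 (0.693), and Htr2a to Colgalt2 (0.722), Dnaja4 (0.7) and Art3 (0.696). Noxa1 and Noxo1 code for subunits of the epithelial NADPH oxidase 1 complex.

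In the 59 hearts the leading genes differed from those of the jejunum. Slc6a4 was nearest to Itgb3 (0.734), the platelet integrin beta 3 gene, Pla2g7 (0.716) and Hpse (0.707). Htr3a was nearest to the synaptic genes Rab3c (0.888), Syt1 (0.886) and Snap25 (0.861), the last of which is in the neuronal list. Maoa was nearest to Gabra3 (0.766), Inhba (0.764) and Rtn4 (0.754), Maob to Tlcd4 (0.755), Nptn (0.708) and Wls (0.703), Htr2a to Aggf1 (0.613), Esrrg (0.587) and Ctps (0.586), and Ddc to Efnb3 (0.572), Pcp4l1 (0.508) and Dhcr7 (0.497). Among the serotonin genes themselves, Maoa and Maob correlated at 0.876 over the 38 jejuna and at 0.653 over 32, and at 0.356 over the 59 hearts.

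A wider list of 33 genes of the pathway held the cofactor enzymes of tetrahydrobiopterin, neuronal synthesis, other transporters, further breakdown and conversion enzymes, the remaining receptors, and 2 receptor partner or serotonylation genes. Between 19 and 22 of them had enough counts in a comparison. Of 313 tests 1 was called, 30 had an unadjusted p below 0.05, and Tph2, the neuronal hydroxylase, had a median of 0 in both tissues. The gene called was Inmt, an N-methyltransferase of tryptamine and related amines, which was higher in male than in female control hearts of experiment 1, at 11.4 ± 1.65 against 4.34 ± 0.913 CPM (SD, n = 5 each). The log2 difference of Inmt was 1.40 (SE 0.21, 0.95 to 1.85, adjusted p = 0.00338 by edgeR), and 1 of 19 pathway genes tested there was called beside 0.152% of all genes.

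In the hearts of experiment 2, Gch1, which starts synthesis of the hydroxylase cofactor, was at 5.98 ± 0.575 CPM with naproxen and tryptophan and 4.61 ± 0.358 CPM in controls (SD, n = 8 each). Its log2 difference was 0.37 (0.20 to 0.55) with an adjusted p of 0.0505 by edgeR, just outside the threshold. All 6 cofactor genes had a positive difference there, with a median of 0.162 beside -0.00452 over all genes, and 0 of 6 were called beside 0.255%.

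In the jejunum, 0 of 22 pathway genes were called in each of the 7 comparisons. For naproxen, 18 of 22 were negative with a median of -0.177 beside 0.022 over all genes, and 0 were called beside 0.0116% of all genes. At an unadjusted p below 0.05 there were 5 of the 22, beside 16% of all genes. All 6 cofactor genes and all 7 breakdown and conversion genes tested were negative, while the 3 tested receptors were positive. Htr7, a receptor of smooth muscle and nerves, had 0.834 ± 0.380 CPM with naproxen (SD, n = 7), 0.958 ± 0.487 CPM with naproxen and tryptophan (n = 7), 0.335 ± 0.207 CPM in controls (n = 8) and 0.317 ± 0.0996 CPM with celecoxib (n = 8). Its log2 differences were 1.35 (0.60 to 2.13, adjusted p = 0.174) for naproxen and 1.48 (0.74 to 2.26, adjusted p = 0.351) for naproxen with tryptophan, which share controls, and 1.47 (0.71 to 2.26, adjusted p = 0.101) for naproxen against celecoxib, by edgeR.

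Pcbd1, which recycles the hydroxylase cofactor, had 13.8 ± 2.61 CPM with naproxen (SD, n = 7) and 18.9 ± 3.75 CPM in control jejuna (n = 8), a log2 difference of -0.43 (-0.70 to -0.17, adjusted p = 0.176 by edgeR). Aldh1b1, a mitochondrial aldehyde dehydrogenase, had 342 ± 65.3 CPM with naproxen and 518 ± 71.5 CPM with celecoxib, a difference of -0.61 (-0.90 to -0.31, adjusted p = 0.0941 by edgeR). None of these differences passed the threshold over all genes.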

How the data were processed

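RNA-seq of 97 mouse libraries was used as deposited. The authors made each estimated count per gene with Salmon 1.9.0 and R 4.2.2 on build GRCm38 before they deposited the table, per the submitters' processing notes. How transcripts were summed to genes and whether strand was used are not given in the sources used here. Of the values, 24.7% were not whole, and all were rounded. Hearts were sequenced to 26295720 to 76357609 counts and jejuna to 10107247 to 28537536. The jejunal RNA was of lower integrity and was depleted of ribosomal RNA, per the labels' protocols.

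Each experiment was fitted on its own in edgeR 4.0.16 (R 4.3.3): filterByExpr at a minimum count of 10, TMM scaling, robust quasi-likelihood test, Benjamini-Hochberg over all tested genes, threshold 0.05, with all groups in the model and the dissection batch of the labels (4 batches) as a block in experiments 3 and 4. Genes under the filter were compared by exact 2-sided permutation on log2(CPM + 0.5), without a block for dissection batch. Alternatives used limma 3.58.1, DESeq2 1.42.0, other scaling, other filters, the replicate block and leaving out each library. The script was tested on simulated data. Each animal was 1 library, and no 2 libraries were alike enough to be duplicates (highest correlation 0.99862).

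The 10 genes, the pathway list and the marker lists were chosen with earlier results of these data known. Named were all 10 genes, any pathway gene called and otherwise at most 2 a comparison with the smallest p, and the 3 genes most alike each member, of which 1 is not reported here. The relations to markers and the fit without 6 jejuna with the lowest summed enterocyte markers were added after the data had been seen.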

Additional observations from a re-analysis of the deposited data

Results flagged for a closer look

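In 17 of 137 sets of a gene and a group, the highest or lowest library stood apart from the others by Dixon's criterion. The chance rate of about 1 in 20 holds for normally distributed values. Several flagged libraries held few counts, down to 1 count, so the 17 of 137 cannot be set against that rate. In the hearts, Htr3a was high in experiment 2 control replicate 8 (2.29 CPM; next 1.1), experiment 2 naproxen with tryptophan replicate 4 (2.54; next 0.246), experiment 3 control replicate 6 (4.11; next 1.43) and experiment 3 tryptophan replicate 7 (3.18; next 1.43), and in the jejunum in celecoxib replicate 5 (5.81; next 3.69). In experiment 3, control replicate 6 and tryptophan replicate 7 also had the highest neuronal marker sums of their groups, 51.3 and 35.1 CPM.

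Experiment 3 control replicate 6 was likewise high for Ddc, at 8.37 CPM with the next at 5.97. Experiment 2 control replicate 8 was high for Maoa, at 8.00 CPM with the next at 5.15. Slc18a1 was high in experiment 3 control replicate 3 (0.442 CPM) and tryptophan replicate 7 (0.576 CPM), at 22 and 25 counts. Tph1 was high in experiment 1 male naproxen replicate 8 (0.296 CPM, 7 counts) and in jejunum naproxen with tryptophan replicate 6 (9.56 CPM; next 6.25).

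Male control replicate 10 of experiment 1 was low for both Htr2a (1.31 CPM; next 1.81) and Htr2b (0.103 CPM; 3 counts). Htr2b was high in experiment 1 female naproxen replicate 3 (0.557 CPM; next 0.252) and in jejunum tryptophan replicate 6 (4.94 CPM; next 2.79). Htr2a was high in jejunum celecoxib replicate 5 (0.774 CPM, 8 counts). Htr4 in experiment 3 control replicate 8 was set apart by 1 count (0.017 CPM).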

How the results depend on the processing

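The number of serotonin genes called was 0 in each of the 15 comparisons under every alternative run except the fit without a filter on low counts. There it was 1 for tryptophan in experiment 3 (Htr3a, log2 difference -0.74, adjusted p = 0.033 by edgeR), 1 for naproxen in the jejunum (Slc6a4, -0.49, adjusted p = 0.00551) and 2 for naproxen against celecoxib (Slc6a4, -0.53, adjusted p = 0.00139, and Maob, -0.44, adjusted p = 0.0191). The cause was not tested. Over all alternatives, the adjusted p of these ran from 0.033 to 1, from 0.00551 to 0.459, from 0.00139 to 0.497 and from 0.0191 to 0.702. Leaving out each library in turn gave 0 called throughout (2024 refitted values). Signs changed, with neither value called, in 204 of those and in 42 of 758 other refits.

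The number of all genes called moved far more. Without the filter it was 179 for tryptophan in experiment 3, 9 and 0 for the last 2 comparisons of experiment 2 (41 and 15 in the text), 1 for naproxen in males, and in the jejunum 319 (celecoxib), 1182 (naproxen), 253 (tryptophan), 476 (naproxen with tryptophan), 333 (tryptophan added to naproxen), 319 (interaction) and 1784 (naproxen against celecoxib). DESeq2 gave 52, 40, 1 and 59 in experiment 1, 6, 460 and 80 in experiment 2, 2 in experiment 3, and 0, 93, 0, 10, 10, 2 and 253 in the jejunum in the order above. Fits of only the compared groups gave 4, 1 and 15 in experiment 1 (females, males, sexes), 4, 231 and 0 in experiment 2, and in the jejunum 1 for celecoxib and 0 for naproxen. Without the dissection batch, and without the 6 low jejuna, naproxen gave 0. Leaving out 1 library gave 0 to 3 for naproxen in either sex, 15 to 20 for the sexes, 7 (without control replicate 4) to 83 (without naproxen with tryptophan replicate 8) and 0 to 42 in experiment 2, 0 to 8 for naproxen in the jejunum (highest without control replicate 1) and 0 to 498 for naproxen against celecoxib (highest without naproxen replicate 6).

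Replicate numbers do not pair the mice: same-numbered libraries had median correlations of 0.00153, 0.0435, -0.203 and 0.00854 in experiments 1 to 4. With the replicate block, 0 serotonin genes were called, and the genes called were 3 and 6 for naproxen in females and males, 4 and 0 for the last 2 comparisons of experiment 2, 1 in experiment 3 and 0 for naproxen in the jejunum. The block could not be fitted for male against female controls, whose numbers differ. In hearts, depth limits Tph1 and Htr4, at up to 11 and 2 counts a library.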
